A study of Mus musculus with 6 samples.

Results

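*Ephx1*, its sister enzyme gene *Ephx2* and 8 genes of the Nrf2 antioxidant response were followed in RNA-seq of colorectal tumors from mice with and without *Trp53* in the intestinal epithelium. The 10 genes were chosen by name, with earlier results of the same tumors known, and all 10 were found among the 54167 genes of the deposited table. The tumors were induced in 8-week-old male mice, labelled as C57BL/6J, with 10 mg/kg azoxymethane (AOM), a carcinogen, followed by cycles of 2.5% dextran sulfate sodium (DSS) in the drinking water for 7 days each, which inflames the colon, and were taken on day 98. The comparison is between 2 genotypes with 3 tumors each. Trp53fl/fl mice carry *Trp53* alleles flanked by loxP sites and lack Cre, so that p53 stays intact, and *VP* mice carry the same alleles together with Pvillin-Cre, which removes *Trp53* only in cells that use the villin promoter, that is, the intestinal epithelium. Both groups share the floxed alleles and the AOM/DSS treatment, no untreated colon was analysed here, and stromal and immune cells of *VP* tumors keep *Trp53*. Each library came from whole dissected tumor, so fewer cells of a type and less RNA per cell cannot be told apart in any value below. The labels do not say whether the 3 tumors of a genotype came from different mice, and the errors given are those between tumors. Nor is it stated whether mice of the 2 groups were littermates. Deletion of *Trp53*, the Cre transgene and any difference in genetic background therefore cannot be told apart.

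Nrf2, encoded by *Nfe2l2*, is a transcription factor that is held in the cytoplasm and passed to degradation by its sensor Keap1. When oxidants or electrophiles modify Keap1, Nrf2 escapes, pairs with a small Maf protein and binds antioxidant response elements in the promoters and enhancers of genes for glutathione synthesis, thioredoxin and sulfiredoxin reduction, quinone reduction and heme breakdown. *Ephx1* encodes microsomal epoxide hydrolase, a membrane enzyme of the endoplasmic reticulum that adds water to reactive epoxides of drugs, carcinogens and other xenobiotics and that is induced by Nrf2 and by xenobiotic receptors, whereas *Ephx2* encodes soluble epoxide hydrolase, which acts mainly on epoxides of fatty acids.

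Values are TPM, the abundance of a transcript per length as a share of its library, which the authors scaled for transcript length and for library size. They keep no number of reads, so that the depth of each library is unknown. Differences between genotypes are log2 fold changes of TPM + 1, *VP* minus Trp53fl/fl, with the standard error (SE) of limma, a linear model with shared variance estimates, fitted over the 15117 genes that reached 1 TPM in 3 or more tumors. All 10 genes passed this filter. *Trp53* itself was at 99.3 to 147.45 TPM in the Trp53fl/fl tumors against 27.83 to 38.45 TPM after Cre deletion, with a log2 fold change of -1.87 (SE 0.18, limma adjusted p = 0.0207). Over all genes tested, 25 were called at a limma adjusted p under 0.05, which is 0.165% of them, and the median log2 fold change was -0.07. The 12 epithelial markers summed to 9375 to 9804 TPM in Trp53fl/fl tumors and to 10186 to 11355 TPM in *VP* tumors, with *Krt8*, a keratin, as the most abundant, so that the epithelial identity of the tissue was present in every library.

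*Ephx1* stood apart from the other 9 genes. It was at 32.62, 41.90 and 30.93 TPM in the Trp53fl/fl tumors against 7.99, 9.36 and 7.46 TPM in the *VP* tumors. The lowest Trp53fl/fl tumor was thus far above the highest *VP* tumor, and within each genotype the tumors lay close together, with a coefficient of variation of 16.8% and 11.9%. The means were 35.2 ± 5.91 TPM and 8.27 ± 0.980 TPM (SD over the 3 tumors of each), 4.25-fold lower in the *VP* tumors. Its log2 fold change was -1.96 (SE 0.16), the 57th largest in size among the genes tested. Its limma adjusted p of 0.0080 placed it among the 25 genes called, but this difference is also what drew attention to the gene, and it is given as a description and not as a test. Leaving out any 1 tumor kept its log2 fold change within -2.04 to -1.83. The limma adjusted p rose above 0.05 without Trp53fl/fl replicate 1 (0.0590) and without *VP* replicate 1 (0.0605). A pseudogene that overlaps *Ephx1* on the same strand, *Gm36961*, was listed at 0 in every tumor.

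None of the 12 epithelial markers was called at a limma adjusted p under 0.05, against 0.165% of all genes tested. At an unadjusted limma p under 0.05, 2 of the 12 were higher and none lower. Over all genes tested this was 12.5% in either direction, and 682 of 15117 were higher. The median log2 fold change of the 12 markers was 0.06, with 9 higher and 3 lower. The higher sum in *VP* tumors rested mainly on the abundant *Krt19*, *Krt8* and *Cldn7*. Centring each tumor on these markers gave a log2 fold change of -2.10 for *Ephx1*. Macrophage markers, led by *Lyz2*, summed to 1182 to 1259 TPM in Trp53fl/fl and 985 to 1363 TPM in *VP* tumors, and markers of fibroblasts and smooth muscle, led by *Col3a1*, to 1283 to 1506 TPM and 1198 to 2009 TPM, and both overlapped between the genotypes. The sum of neutrophil markers, led by *S100a9*, was higher without overlap, at 604 to 1215 TPM against 1700.2 to 2796 TPM. All 14 markers that passed the filter had a positive log2 fold change, with a median of 1.53, against 5930 higher of 15117 genes tested. Of the 14, 10 were higher without overlap, against 911 of all genes tested, while *Lcn2*, *Mmp9*, *Csf3r* and *Ly6g* overlapped. *Camp* was listed at 0 in all Trp53fl/fl tumors and was at 2.53 to 6.14 TPM in *VP* tumors, while the granule genes *Elane* and *Mpo* were at or below 0.36 TPM in all 6 tumors. *Ngp*, a neutrophil granule gene, was the only marker called (0.547 ± 0.307 TPM against 32.9 ± 15.2 TPM, SD, n = 3 each, limma adjusted p = 0.0080). Hemoglobin and other red blood cell genes, led by *Hba-a1*, were higher as well, at 165 to 484 TPM against 648 to 992 TPM. The part of these cells in the values of the 10 genes was not tested.

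**Figure D1:**
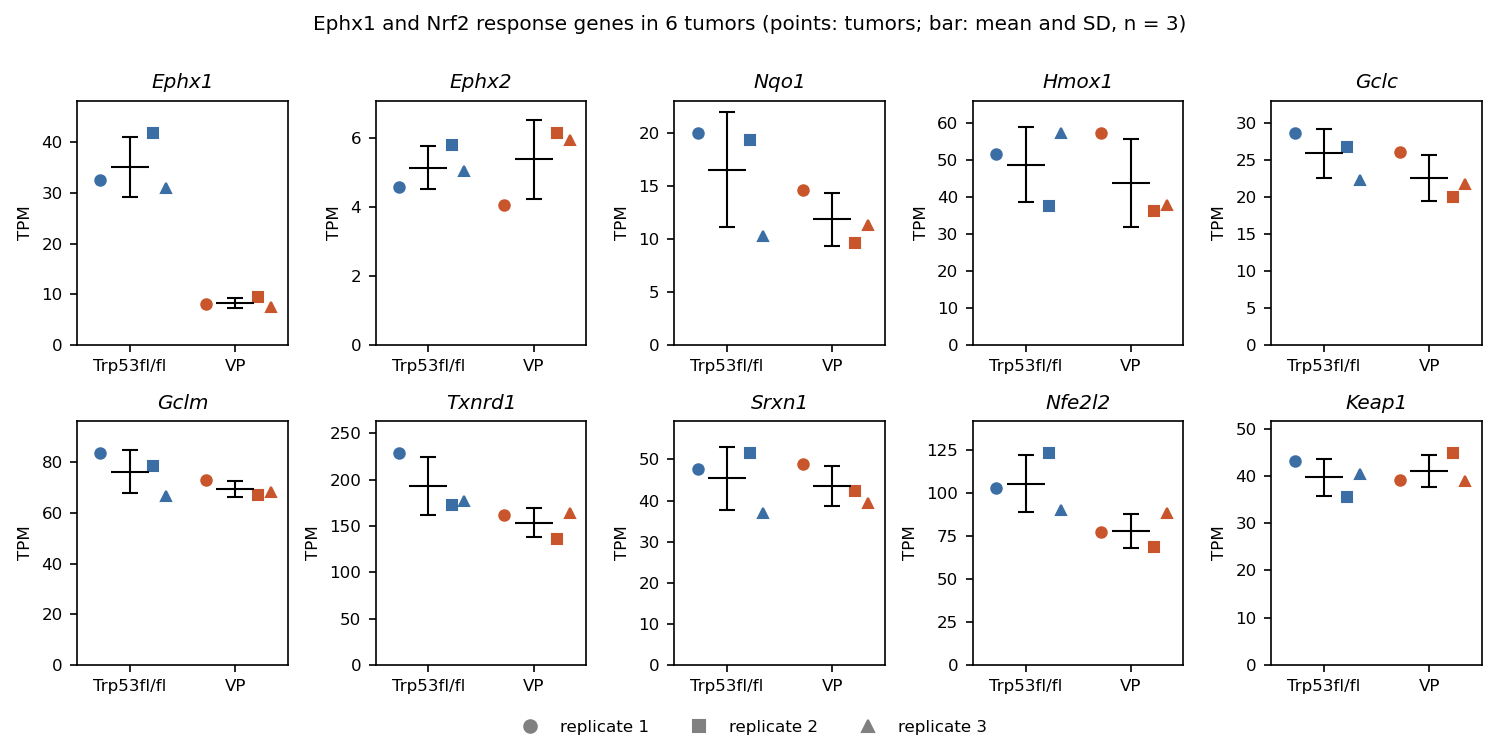
TPM of the 10 genes in each tumor, one panel per gene with its own axis from 0. Points are tumors (shape gives the replicate number) and bars are the mean and SD of 3 tumors. Only *Ephx1* shows a wide gap, with 30.93 TPM in the lowest Trp53fl/fl tumor and 9.36 TPM in the highest *VP* tumor.

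The promoter of *Ephx1* is shown because Nrf2 is a known inducer of this gene. In the RefSeq table for GRCm38.p6, 7 of the 10 genes had a promoter window of 250 bases before to 50 bases after a transcription start (9 windows in all), and *Ephx2*, *Hmox1* and *Gclc* had none there. The *Ephx1* window lies on the minus strand, and the 250 bases before the start are chr1:181017570-181017819, with a GC content of 51.2% against a median of 52.4% for all such windows. The sequence below is read 5′ to 3′ along the gene.
Ephx1: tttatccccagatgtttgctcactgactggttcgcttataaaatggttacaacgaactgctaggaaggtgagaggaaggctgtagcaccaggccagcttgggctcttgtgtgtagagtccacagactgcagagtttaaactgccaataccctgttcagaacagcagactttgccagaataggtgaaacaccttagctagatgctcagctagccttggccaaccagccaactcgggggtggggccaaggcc

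The core of the antioxidant response element was searched as TGACNNNGC on either strand, where N is any base. The *Ephx1* window held no match, nor did those of *Nqo1* and *Keap1*, which says only that these letters are absent from these windows. *Nfe2l2*, *Gclm*, *Txnrd1* and *Srxn1* did hold one, in 4 of the 9 windows. Of all 32851 windows in the table, 12.4% held it. These matches are shown in 30 bases each, 5′ to 3′ along the gene, with the core in capitals, and where it lies on the opposite strand the capitals read GCNNNGTCA.
Nfe2l2, minus strand, chr2:75704884-75704913: tcagcccaccTGACTCCGCcatgccccgga
Gclm, plus strand, chr3:122245413-122245442: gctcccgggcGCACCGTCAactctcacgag
Txnrd1, plus strand, chr10:82859104-82859133: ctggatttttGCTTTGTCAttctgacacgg
Srxn1, plus strand, chr2:152105542-152105571: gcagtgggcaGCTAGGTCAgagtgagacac
The core begins 240 bases before the start in *Nfe2l2*, 134 in *Gclm* and 92 in this window of *Txnrd1*, which has 3 windows. In *Srxn1* it lies just after the start. With the looser core TGANNNNGC, which 41.3% of all windows hold, *Keap1* matched too, 61 bases before its start, another window of *Txnrd1* had a match 84 bases before its start, and *Srxn1* had further matches 158, 57 and 45 bases before its start. The last of these, the only one of the 3 on the strand of the gene, is shown.
Srxn1, plus strand, chr2:152105469-152105498: aaattcacccTGAGTCAGCggccgggcgcg
*Ephx1* and *Nqo1* had no match to the looser core either. Of the 4 genes with a TGACNNNGC core, *Nfe2l2* and *Txnrd1* had no overlap between the genotypes, whereas *Gclm* and *Srxn1* overlapped. *Ephx1*, whose window held no core, had no overlap either. Over all genes tested, 13.3% lay lower in *VP* tumors without overlap and 19.3% had no overlap in either direction. The genotype difference guided the choice of genes, so nothing is read from these counts.

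Among the regulators, *Nfe2l2* was at 102.97, 123.48 and 90.53 TPM in Trp53fl/fl tumors against 77.26, 68.77 and 88.62 TPM in *VP* tumors. All 3 *VP* tumors were below the Trp53fl/fl tumors, but the gap between *VP* replicate 3 and Trp53fl/fl replicate 3 was narrow. Its means were 105.7 ± 16.6 and 78.2 ± 9.96 TPM (SD, n = 3 each), 26.0% lower, with a log2 fold change of -0.43 (SE 0.15). *Keap1* was at 43.08, 35.44 and 40.48 TPM against 39.23, 44.83 and 38.99 TPM. Its values overlapped, and the log2 fold change of 0.05 (SE 0.12) was smaller than its error and became -0.09 with epithelial centring. The ratio of *Nfe2l2* to *Keap1* TPM was 2.70 ± 0.680 in Trp53fl/fl and 1.93 ± 0.371 in *VP* tumors (SD over 3 tumors each), with overlap between 2.24 in Trp53fl/fl replicate 3 and 2.27 in *VP* replicate 3.

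For the enzymes of the thioredoxin branch, *Txnrd1*, which encodes cytosolic thioredoxin reductase, a selenoprotein that keeps thioredoxin reduced, was at 228.68, 172.85 and 177.21 TPM in Trp53fl/fl tumors against 161.35, 135.42 and 163.69 TPM in *VP* tumors. The genotypes did not overlap, although Trp53fl/fl replicate 1 was well above the other 5 tumors. Its log2 fold change was -0.32 (SE 0.14), and it was -0.19 without Trp53fl/fl replicate 1. *Srxn1*, which encodes the sulfiredoxin that repairs overoxidized peroxiredoxins, was at 47.79, 51.57 and 36.86 TPM against 48.87, 42.41 and 39.32 TPM. These overlapped throughout, and the log2 fold change of -0.05 (SE 0.16) turned to 0.02 with median-of-ratios rescaling.

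Both subunits of glutamate-cysteine ligase, the rate-limiting enzyme of glutathione synthesis, overlapped between the genotypes. *Gclc*, the catalytic subunit, was at 28.65, 26.68 and 22.23 TPM against 26.03, 19.90 and 21.70 TPM, with a log2 fold change of -0.19 (SE 0.15). *Gclm*, the modifier subunit, was at 83.60, 78.52 and 66.80 TPM against 73.01, 67.09 and 68.10 TPM, a log2 fold change of -0.13 (SE 0.12). With 1 tumor left out, *Gclc* lay between -0.29 (without *VP* replicate 1) and -0.11 (without *VP* replicate 2), and *Gclm* between -0.22 (without Trp53fl/fl replicate 3) and -0.06 (without Trp53fl/fl replicate 1). The modifier transcript was more abundant per length than the catalytic one in every tumor, with a ratio of TPM of 2.96 ± 0.0448 in Trp53fl/fl and 3.10 ± 0.285 in *VP* tumors (SD over 3 tumors each).

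*Nqo1*, which encodes the quinone reductase often used as a readout of Nrf2, was at 19.99, 19.29 and 10.26 TPM in Trp53fl/fl tumors against 14.55, 9.61 and 11.29 TPM in *VP* tumors. Trp53fl/fl replicate 3 lay within the range of the *VP* tumors, and the coefficient of variation of 32.9% in Trp53fl/fl tumors was the widest of the 10 genes in that genotype. The log2 fold change was -0.41 (SE 0.27), and it was -0.71 without Trp53fl/fl replicate 3 and -0.26 without Trp53fl/fl replicate 1. *Hmox1*, the inducible heme oxygenase, was at 51.65, 37.49 and 57.33 TPM against 57.47, 36.33 and 37.77 TPM. High and low tumors occurred in both genotypes, with a log2 fold change of -0.16 (SE 0.22) that was -0.37 without *VP* replicate 1 and -0.04 without Trp53fl/fl replicate 3. *Ephx2* was the weakest of the group, at 4.59, 5.80 and 5.03 TPM against 4.06, 6.15 and 5.93 TPM, and its log2 fold change of 0.04 (SE 0.19) turned to -0.10 with epithelial centring. The ratio of *Ephx1* to *Ephx2* TPM was 6.83 ± 0.590 in Trp53fl/fl tumors and 1.58 ± 0.359 in *VP* tumors (SD over 3 tumors each).

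**Figure D2:**
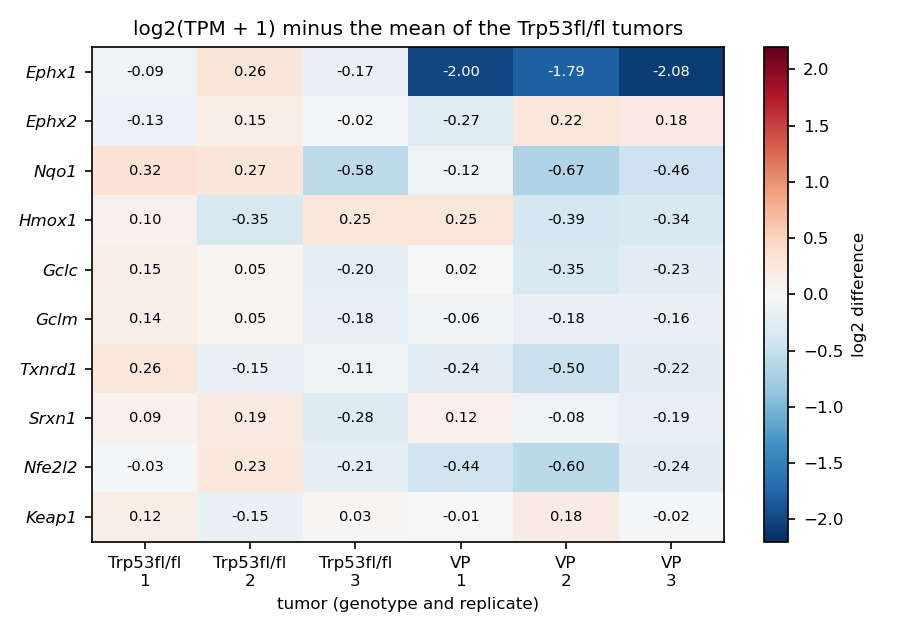
Each of the 10 genes in each tumor as log2(TPM + 1) minus the mean of the 3 Trp53fl/fl tumors, with the colour scale and the printed value giving the log2 difference. *Ephx1* lies between -2.08 and -1.79 in the *VP* tumors, while the lowest value of any other gene is -0.67.

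Of the 10 genes, 1 was called at a limma adjusted p under 0.05, against 0.165% of all genes tested in either direction and 0.0860% lower, and the *VP* tumors lay below the Trp53fl/fl tumors without overlap for 3 (*Ephx1*, *Nfe2l2* and *Txnrd1*), against 13.3% of all genes tested in this direction and 19.3% in either. The same difference guided the choice of genes, so nothing is read from these counts. Their median log2 fold change was -0.18, and -0.16 without *Ephx1*, beside -0.07 over all genes. With median-of-ratios rescaling the median of the 10 genes was -0.11 and with epithelial centring -0.31, which shifts all genes alike and moved the median of all genes to -0.21. Single tumors shared a position across genes. *VP* replicate 2 was the lowest of its genotype for 6 of the 10 genes (*Nqo1*, *Hmox1*, *Gclc*, *Gclm*, *Txnrd1* and *Nfe2l2*), but the highest for 3 (*Ephx1*, *Ephx2* and *Keap1*). Trp53fl/fl replicate 3 was the lowest of its genotype for 6 (*Ephx1*, *Nqo1*, *Gclc*, *Gclm*, *Srxn1* and *Nfe2l2*).

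Across the 6 tumors, the levels in TPM ran from *Txnrd1* (mean 173.2 TPM) through *Nfe2l2* (91.9), *Gclm* (72.9), *Hmox1* (46.3), *Srxn1* (44.5), *Keap1* (40.3), *Gclc* (24.2), *Ephx1* (21.7) and *Nqo1* (14.2) to *Ephx2* (5.26). *Txnrd1*, at 135.42 to 228.68 TPM, was above *Nfe2l2* in all tumors, and the ranges of *Gclm* and *Hmox1*, of *Keap1* and *Gclc* and of *Nqo1* and *Ephx2* did not overlap either. The neighbours *Nfe2l2* and *Gclm*, *Hmox1* and *Srxn1*, and *Srxn1* and *Keap1* overlapped in range. *Ephx1* overlapped both its neighbours in this order, *Gclc* and *Nqo1*, since it was above *Gclc* in each Trp53fl/fl tumor and below *Nqo1* in each *VP* tumor.

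A list of 40 other known Nrf2 target genes was then read in the same fit. It held 37 genes that passed the filter, and none was called at a limma adjusted p under 0.05. At an unadjusted limma p under 0.05, 1 was lower in *VP* tumors and none higher, against 12.5% of all genes tested in either direction. The median log2 fold change was -0.09, beside -0.07 over all genes, with 23 genes lower and 14 higher. The gene below 0.05 was *Slc7a11*, the cystine carrier that supplies glutathione synthesis, at 7.36, 7.25 and 8.22 TPM against 6.34, 4.19 and 4.88 TPM, a log2 fold change of -0.50 (SE 0.17, limma adjusted p = 0.341).

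The lowest log2 fold changes of this list belonged to *Abcc2*, an export pump for glutathione conjugates (-1.02, SE 0.67), *Me1*, the cytosolic malic enzyme that makes NADPH (-0.66, SE 0.35), *Slc7a11* and the export pump gene *Abcc4* (-0.46, SE 0.22). *Abcc2* was at 13.62, 23.29 and 11.82 TPM against 13.49, 1.56 and 13.78 TPM, so that *VP* replicate 2 alone was low and the other *VP* tumors lay within the range of the Trp53fl/fl tumors. The highest were *Gstm2* (0.32, SE 0.31), a glutathione S-transferase, *Osgin1* (0.26, SE 0.15), an oxidative stress-induced growth inhibitor, *Gsta3* (0.15, SE 0.30), another transferase, and *Abcc3* (0.14, SE 0.14), a conjugate exporter. The limma adjusted p of these genes lay between 0.341 and 0.853.

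Among 20 genes that control Nrf2 or act beside it, all of which passed the filter, none was called at a limma adjusted p under 0.05, and 4 were lower and 1 higher at an unadjusted limma p under 0.05 (5 of 20, against 12.5% of all genes tested). The median log2 fold change was -0.05. Of the 20 genes, 4 were lower and 2 higher without overlap. Over all genes tested, 13.3% were lower without overlap and 19.3% had no overlap in either direction. *Nfe2l3*, a relative of Nrf2, was at 30.05, 27.82 and 35.14 TPM against 21.34, 19.19 and 27.35 TPM, a log2 fold change of -0.45 (SE 0.16, limma adjusted p = 0.353). *Ep300*, which encodes an acetyltransferase that serves Nrf2 as a coactivator, had a log2 fold change of -0.38 (SE 0.13, limma adjusted p = 0.340), and so did *Crebbp*, its close relative (SE 0.14, limma adjusted p = 0.358). The small Maf partners of Nrf2 did not share a direction. *Maff* had 0.25 with overlap (SE 0.14, limma adjusted p = 0.496). *Mafk* was higher without overlap, at 34.13 to 38.8 TPM against 41.9 to 44.04 TPM. Its log2 fold change was 0.21 (SE 0.10, limma adjusted p = 0.444). *Mafg* was lower without overlap, at 52.32, 54.78 and 46.80 TPM against 41.26, 35.77 and 43.54 TPM. Its log2 fold change was -0.35 (SE 0.12, limma adjusted p = 0.341). The highest value was that of *Nfe2*, a relative of Nrf2 known from blood cell precursors, at 1.93, 1.23 and 1.58 TPM against 3.97, 4.37 and 2.87 TPM, a log2 fold change of 0.87 (SE 0.21, limma adjusted p = 0.265). The red blood cell and neutrophil markers were higher in the same tumors, and their part in the value of *Nfe2* was not tested.

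**Figure D3:**
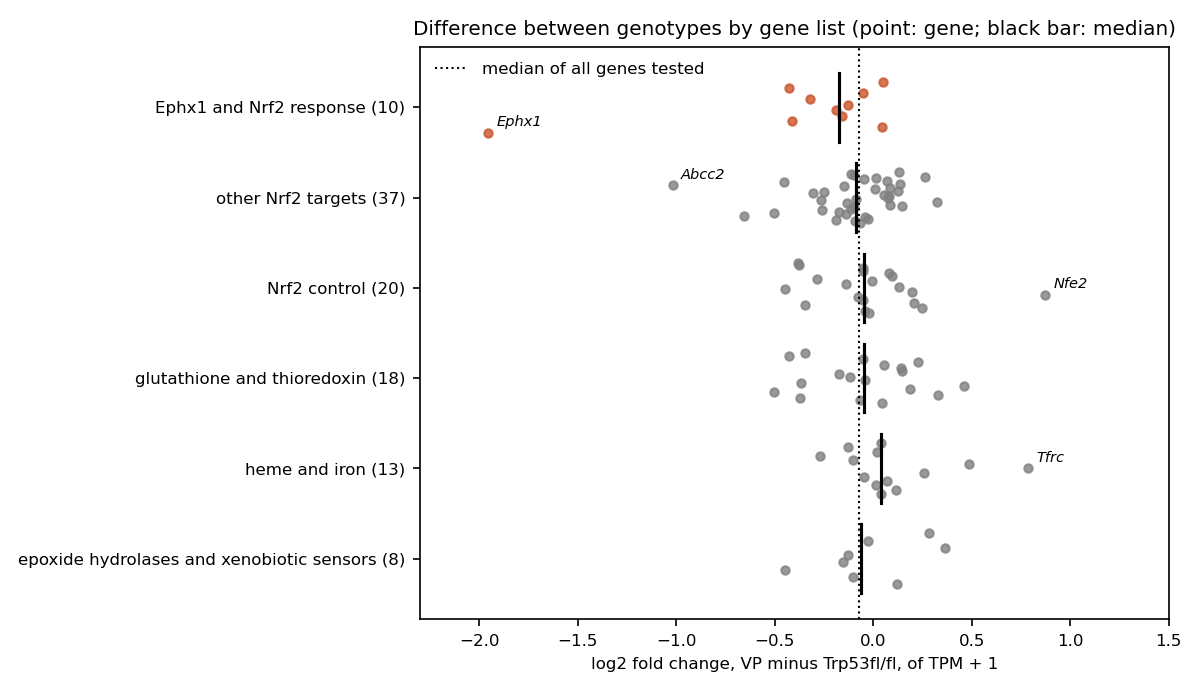
Log2 fold change of TPM + 1, *VP* minus Trp53fl/fl, for each tested gene of 6 lists, with the number tested in parentheses. Points are genes, black bars are list medians, and the dotted line is the median of all genes tested (-0.07). *Ephx1* at -1.96 lies apart from every other gene shown, and the list medians lie between -0.18 and 0.04.

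The same reading was made for 3 lists around the enzymes, some genes of which are shared with the lists above. Of 18 glutathione and thioredoxin genes, none was called at a limma adjusted p under 0.05, 3 were lower at an unadjusted limma p under 0.05 and none was higher, against 12.5% of all genes tested. Beside *Slc7a11*, *Sesn2*, a stress-induced sestrin known as a p53 target, was at 10.72, 10.64 and 10.90 TPM against 7.16, 8.70 and 7.41 TPM, without overlap and with little spread in Trp53fl/fl tumors (log2 fold change -0.43, SE 0.13, limma adjusted p = 0.317). The last of the 3 lower genes was *Chac2*, at 16.53, 18.76 and 14.91 TPM against 12.32, 12.25 and 13.55 TPM (log2 fold change -0.37, SE 0.13, limma adjusted p = 0.345). *Chac1*, which degrades glutathione, and *Ggt6*, a relative of gamma-glutamyltransferase, had the highest log2 fold changes, 0.46 (SE 0.40) and 0.33 (SE 0.20), with limma adjusted p-values of 0.638 and 0.510. *Chac1* overlapped, at 3.32, 2.67 and 2.80 TPM against 8.94, 4.23 and 2.03 TPM.

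Of 13 heme and iron genes, none was called at a limma adjusted p under 0.05, and 2 were higher in *VP* tumors at an unadjusted limma p under 0.05, against 12.5% of all genes tested in either direction. *Alas1*, the first and rate-limiting enzyme of heme synthesis outside red blood cells, was at 219.43, 190.16 and 197.52 TPM in Trp53fl/fl tumors against 275.25, 292.34 and 283.62 TPM in *VP* tumors, with a wide gap and a narrow spread (log2 fold change 0.49, SE 0.10, limma adjusted p = 0.199). *Tfrc*, the transferrin receptor, was at 60.36, 76.23 and 49.98 TPM against 167.21, 109.50 and 65.69 TPM, with overlap (log2 fold change 0.79, SE 0.33, limma adjusted p = 0.394). *Cpox* and *Uros*, later enzymes of heme synthesis, had the lowest log2 fold changes, -0.27 (SE 0.12) and -0.13 (SE 0.20), with limma adjusted p-values of 0.423 and 0.800. The hemoglobin transcripts were higher in the same *VP* tumors, and their part in the values of this list was not tested.

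Of 11 further epoxide hydrolase and xenobiotic sensor genes, 8 passed the filter and none was called at a limma adjusted p under 0.05, while 1 of the 8 was lower and none higher at an unadjusted limma p under 0.05, against 12.5% of all genes tested. *Ahr*, the receptor for aromatic hydrocarbons, was at 10.99, 12.07 and 9.81 TPM against 9.15, 7.50 and 6.72 TPM (log2 fold change -0.45, SE 0.16, limma adjusted p = 0.341), and its partner *Arnt* had a log2 fold change of -0.15 (SE 0.11, limma adjusted p = 0.586). *Nr1i2*, which encodes the pregnane X receptor, had 0.37 (SE 0.18, limma adjusted p = 0.435), and *Por*, the reductase that feeds electrons to cytochromes P450, had 0.28 (SE 0.14, limma adjusted p = 0.442). The receptors encoded by *Ahr* and *Nr1i2* are known inducers of drug-metabolizing genes.

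The surroundings of *Ephx1* on chromosome 1 were not part of the choice of genes. Of 39 genes that GENCODE M21 places within 500 kb of its start, 11 passed the filter. None was called at a limma adjusted p under 0.05, and 4 had an unadjusted limma p under 0.05. Over all genes tested this was 12.5% in either direction, and 1210 of 15117 were lower. The 4 neighbours, *Parp1* (-0.40), *Wdr26* (-0.37), *H3f3a* (-0.32) and *Acbd3* (-0.31), were lower in *VP* tumors, the direction of *Ephx1*. Of the 11 neighbours 8 were lower and 3 higher, and 4 lay below without overlap, against 13.3% of all genes tested. Those without overlap were *Parp1*, *Acbd3*, *Wdr26* and *Nvl*, whereas *H3f3a* overlapped. Their log2 fold changes lay between -0.40 and 0.38 with a median of -0.19. The nearest tested gene on one side was *Tmem63a*, an ion channel gene, at 36.8 ± 8.85 TPM in Trp53fl/fl and 47.9 ± 7.59 TPM in *VP* tumors (SD, n = 3 in both), with a log2 fold change of 0.38 (SE 0.20, limma adjusted p = 0.459). On the other side it was *Nvl*, which encodes a nuclear ATPase of ribosome assembly, at 9.62 ± 1.76 and 7.25 ± 0.511 TPM (SD, n = 3 in both), with a log2 fold change of -0.35 (SE 0.16, limma adjusted p = 0.416).

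**Figure D4:**
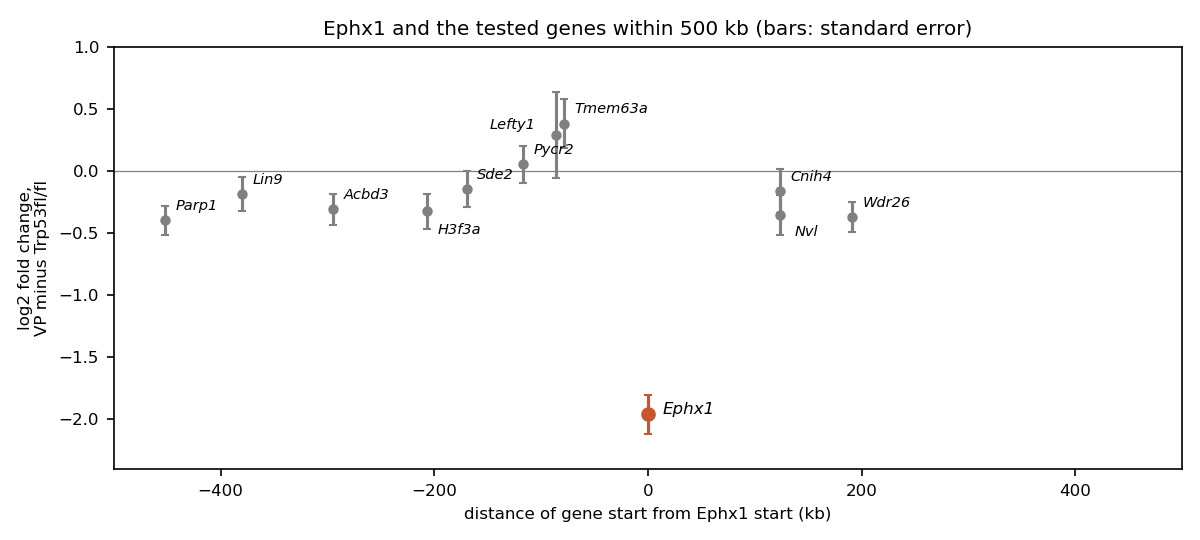
Log2 fold change of TPM + 1, *VP* minus Trp53fl/fl, for *Ephx1* and the 11 tested genes within 500 kb, against the distance of their start from that of *Ephx1* in kb. Bars are standard errors. The neighbours lie between -0.40 and 0.38 and *Ephx1* at -1.96.

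The genes most like *Ephx1* in pattern were found by Pearson's r of log2(TPM + 1) over the 6 tumors among 15116 other genes tested. Because *Ephx1* separates the genotypes, the measure favours genes that separate them too, and it is a description of these 6 libraries. The 5 highest were *Dph6* (r = 0.997), an enzyme gene of diphthamide synthesis, *Srsf1* (r = 0.997), a splicing factor, *Arid3a* (r = 0.996), a transcription factor, *Wdfy1* (r = 0.995) and *Gm45665* (r = 0.994). Their sizes of change were far apart. *Wdfy1* was at 16.70, 23.09 and 15.57 TPM against 5.06, 4.66 and 4.11 TPM and *Gm45665* at 20.15, 28.75 and 20.04 TPM against 0 in each *VP* tumor, whereas *Dph6* had a log2 fold change of -0.43 and *Arid3a* of -0.13. Among the other 9 genes followed here, *Nfe2l2* was the most like *Ephx1*, with r = 0.807, and *Keap1* the least, with r = -0.265.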

How the data were processed

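Poly(A) RNA of 6 dissected tumors was sequenced from both ends, and the authors deposited TPM per gene, one column per tumor, with 2 decimals. The submitters' processing notes list HISAT2, StringTie and mm9 without roles or versions, and the annotation is not given in the sources used here. Since TPM share a fixed sum, a rise of abundant genes lowers the values of the rest. Columns were assigned to tumors through the code in the labels, no column was left unassigned, and no 2 columns were identical.

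From these values log2(TPM + 1) was tested with limma 3.58.1 in R 4.3.3 (empirical Bayes with trend, Benjamini-Hochberg adjustment over 15117 genes), and the fit was tested on simulated data. Members and lists were chosen with earlier results of these data known. Named were the 10 members, *Trp53*, the called and the extreme genes of each pathway list, the 5 genes most like *Ephx1*, its nearest neighbours and the most abundant marker per cell type. *Camp*, *Elane*, *Mpo*, *Lcn2*, *Mmp9*, *Csf3r*, *Ly6g*, *Krt19*, *Cldn7*, *Mafg*, *Mafk*, *Crebbp*, *Chac2*, *Gm36961* and the 4 neighbours with the lowest p were named after their values were seen. Neighbours came from GENCODE M21, promoter sequences from RefSeq (GRCm38.p6), and the deposited values carry no coordinates. In 8 of 9 promoter windows the last bases lay in an annotated transcript. The exception was the window of *Nfe2l2*, so the position given for its core rests on the RefSeq start alone.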

Additional observations from a re-analysis of the deposited data

How the results depend on the processing

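Under 14 alternatives (a pseudocount of 0.1, no filter, a mean of at least 5 TPM, 2 rescalings, epithelial centring, the replicate block, no trend, and each tumor left out), *Ephx1* was lower in *VP* tumors each time, between -2.10 and -1.83, and was called in 12, with limma adjusted p-values from 0.0060 to 0.0605. With a tumor left out, 0 to 1 members were called. No other member, no gene of the other Nrf2 targets or of the Nrf2 control genes, and no neighbour of *Ephx1* (tried after seeing the data) was called under any of them. The members' median log2 fold change moved from -0.18 to -0.31 with epithelial centring, which shifts all genes alike, and lay within -0.33 to -0.11 when any 1 tumor was left out. The log2 fold changes of *Ephx2*, *Srxn1* and *Keap1* changed sign in 4, 3 and 3 alternatives. The 25 genes called became 7 without the filter, where more genes are tested, 40 with epithelial centring, and 3 (without Trp53fl/fl replicate 1) to 23 with a tumor left out. Other single tumors also lowered the count, to 14 and 9 without Trp53fl/fl replicates 2 and 3 and to 7 and 5 without *VP* replicates 1 and 2. Higher calls made up 48.0% of the 25, 59.1% with median-of-ratios rescaling, 37.5% with epithelial centring and 70.0% with the replicate block. The cause of these changes was not tested. The labels do not say whether tumors with the same replicate number were paired. Their deviations correlated at 0.02, -0.05 and 0.02, and those of tumors with different numbers between -0.108 and 0.095. With 3 tumors per genotype these values cannot decide whether a pairing existed. The replicate block gave 10 genes called, *Ephx1* among them. By Spearman's rho, 2 of the 5 genes most like *Ephx1* stayed among the highest, where 100 genes tie. The looser core was found in 5 members against 4. TPM keep no depth, so no counting error could be given.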

Other observations

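Some genes of the lists did not reach the expression filter and have no test. They were singled out after their values were seen. *Ephx3*, a further epoxide hydrolase gene with a role in the skin barrier, was at 0.73, 1.04 and 1.22 TPM in Trp53fl/fl tumors and at 0.16, 0.54 and 0.50 TPM in *VP* tumors. The genotypes did not overlap, at levels near or below 1 TPM. *Nr1i3*, which encodes the constitutive androstane receptor, a known inducer of *Ephx1* in liver, was at 0.70, 1.38 and 0.66 TPM against 0.61, 0.56 and 0.38 TPM. It had no overlap either, but the gap from 0.66 to 0.61 TPM was narrow. Among the genes that passed the filter, 19.3% had no overlap in either direction, and nothing is read from these 2 genes. *Aldh3a1*, *Gsta2* and *Aox1*, known Nrf2 targets in other tissues, stayed at or below 1.01 TPM in all 6 tumors, as did *Ahrr*, the repressor of the aryl hydrocarbon receptor.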
